A study of Mus musculus with 12 samples.

Results

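The imprinted growth genes are 9 genes with parent-of-origin expression that act on growth: Igf2, Igf2r, Grb10, H19, Meg3, Dlk1, Cdkn1c, Plagl1 and Mest. They were taken by symbol from the 25116 gene rows of an RNA-seq count table, and all 9 were found. The table held 12 tumours grown for 22 days in the mammary fat pads of C57BL/6J mice from E0771, a transplantable mouse line of triple-negative breast cancer. Every host, control mice included, carried Tie2CreER, which makes a tamoxifen-dependent Cre recombinase in endothelial cells, and ERKi, an inducible knock-in of endorepellin, the C-terminal part of the basement membrane proteoglycan perlecan. Tamoxifen had been given to the mice of 7 tumours, called induced, and a control injection to those of 5 tumours, called control, so tamoxifen itself and the knock-in cannot be told apart. The comparison asks how endorepellin made by the vessels bears on gene expression in the tumour. The sources used here give neither the ages nor the litters of the mice, and p-values measure only the spread between these tumours. The Tie2 promoter is also known to be active in some blood-forming cells.

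In imprinting, DNA methylation set in the egg or the sperm leaves 1 parental copy of a gene active and the other silent. Many imprinted genes act in opposite directions on fetal growth: in the mouse, paternally expressed genes such as Igf2, Dlk1, Mest and Plagl1 tend to favour growth, and maternally expressed genes such as Igf2r, Grb10, H19 and Cdkn1c tend to restrain it. Most of them are strongly expressed in the embryo and fall silent in most tissues after birth, and altered imprints are known in many tumours. Counts per gene do not tell the parental copies apart, and since host and tumour are both mouse, they do not tell host RNA from tumour RNA either. In bulk tissue, fewer cells of a type and less RNA per cell cannot be told apart.

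None of the 9 genes differed between induced and control tumours past an adjusted p of 0.05. Of the 15199 genes tested across the table by edgeR's quasi-likelihood test with Benjamini-Hochberg adjustment, 0 passed (0%), and 324 (2.13%) had an unadjusted p under 0.05. DESeq2 also called 0 genes, with 391 (2.59%) under an unadjusted 0.05. For none of the 9 did the groups lie apart without overlap, which 9 of all tested genes did (0.0592%), and none had an exact permutation p under 0.05, against 298 of all (1.96%). With limma-voom and sample weights, 1 of the 7 tested, H19, had an unadjusted p under 0.05, against 995 of all (6.55%). Among the 9 genes, Igf2r and H19 had the highest mean levels per exonic length, Igf2r steady and H19 variable between tumours. Igf2 and Dlk1 were close to the limit of detection. Meg3 and Grb10 were set apart by induced 4 and control 1, a tumour of each group, in which both genes were higher than in any of the other 10.

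Total counts ranged from 18993192 to 28372821 per tumour. The knock-in target gives no check of the labels, since the perlecan gene Hspg2 can hold reads of host, tumour and knock-in RNA together: it averaged 536 ± 100.1 CPM in induced and 550 ± 81.4 CPM in control tumours (SD, n = 7 and 5). CPM is the count scaled to library size (counts per megaread), with edgeR's TMM factors. Over the 500 most variable genes, the first principal component held 52.9% of the variance, with control 1 at 44.0, induced 4 at 37.9, control 2 at 26.4 and induced 3 at 20.4, and the other 8 tumours between -22.5 and -4.15. Macrophage markers (10 of 10 in the table, none at 0) summed to 805 CPM in induced 4 and 1467 CPM in control 1, against 159 to 361 CPM in the other 10. Fibroblast markers (15 of 15 in the table, none at 0) summed to 1199 to 4154 CPM in induced tumours and 1645 to 4743 CPM in control tumours, the highest being that of control 1. The label of a mammary carcinoma line was poorly matched by epithelial markers, 9 of 10 of which were in the table and summed to only 2.77 to 5.46 CPM in induced and 1.79 to 9.19 CPM in control tumours.

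**Figure D1:**
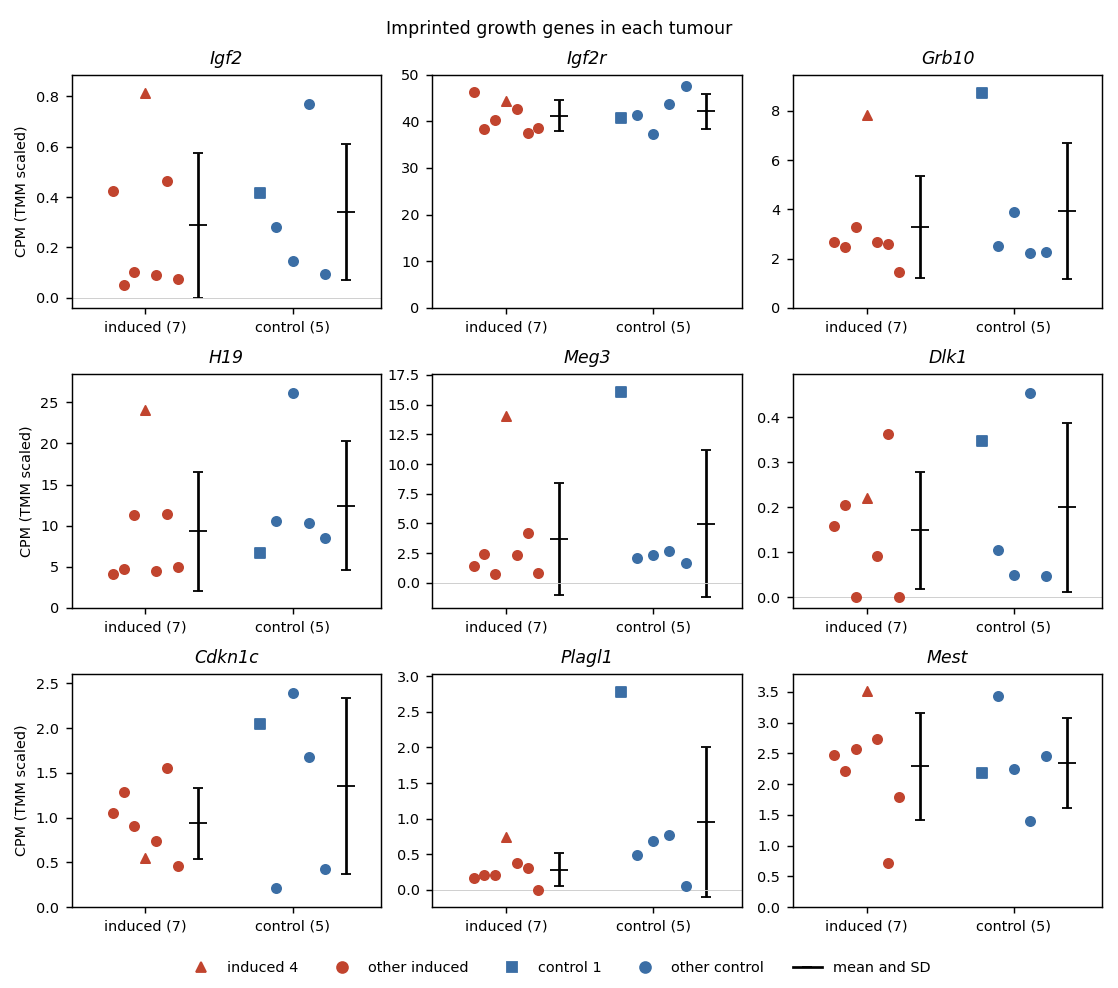
CPM with TMM scaling of each gene in each tumour, induced in red and control in blue, with the group mean and SD beside the points. Induced 4 (triangle) and control 1 (square) are the highest tumours of their groups for Meg3 and Grb10, and Igf2r lies between 37.2 and 47.6 CPM in all 12.

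Igf2 encodes insulin-like growth factor 2, a fetal growth factor that signals through the IGF1 and insulin receptors. It lies on the minus strand of chromosome 7 at 142650766 to 142666816 (GRCm38) and has 5723 exonic bases. Igf2 was barely detected. Induced tumours had 1 to 22 counts, with a median of 2, and control tumours had 12, 8, 3, 17 and 2 counts in control 1 to 5. The groups overlapped over nearly their whole range. Igf2 averaged 0.289 ± 0.288 CPM in induced and 0.342 ± 0.271 CPM in control tumours (SD, n = 7 and 5). The low-count filter removed it, so edgeR did not test it. On the log2 CPM scale the group means differed by -0.32, with a 95% interval of -1.65 to 1.01 (exact permutation p = 0.588). Its exons share 62.8% of their length with Gm49394, a predicted gene on the same strand, so its counts are uncertain.

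Igf2r encodes the mannose 6-phosphate receptor that takes up IGF2 and sends it to lysosomes. The gene is on the minus strand of chromosome 17 at 12682406 to 12769664 and has 9308 exonic bases. Its level was the steadiest of the genes. Induced tumours ranged from 37.5 CPM in induced 6 to 46.3 CPM in induced 1, with a median of 40.4 CPM, and control 1 to 5 had 40.7, 41.4, 37.2, 43.7 and 47.6 CPM. The groups overlapped throughout, and neither induced 4 nor control 1 stood out. Igf2r averaged 41.2 ± 3.33 CPM in induced and 42.1 ± 3.84 CPM in control tumours (SD, n = 7 and 5), a log2 fold change of -0.03 with an SE of 0.09 (edgeR adjusted p = 0.99989). The exact permutation interval of the difference, -0.19 to 0.12 on the log2 CPM scale, corresponds to 0.877-fold to 1.09-fold. The SD of its log2 CPM was at the 4.40th percentile of the tested genes.

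Igf2r is opposite the noncoding RNA Airn, which in the mouse is transcribed from the paternal copy and silences Igf2r there in most tissues. Airn was detected in every tumour. It averaged 5.15 ± 1.09 CPM in induced and 4.33 ± 0.603 CPM in control tumours (SD, n = 7 and 5), with a log2 fold change of 0.25 and an SE of 0.18 (edgeR adjusted p = 0.99989). Without known strand use in the counting, reads of a gene and of an RNA that overlaps it on the opposite strand cannot be told apart.

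Grb10 encodes an adaptor protein that binds the activated insulin and IGF1 receptors and damps their signal. Its position is on the minus strand of chromosome 11 at 11930508 to 12038683 and has 9089 exonic bases. In 10 tumours Grb10 was between 1.45 and 3.91 CPM. It was 7.83 CPM in induced 4 and 8.74 CPM in control 1. Induced tumours had a median of 2.68 CPM, and control 1 to 5 had 8.74, 2.52, 3.91, 2.22 and 2.26 CPM, so the groups overlapped and each had 1 high tumour. The mean was 3.29 ± 2.08 CPM in induced and 3.93 ± 2.77 CPM in control tumours (SD, n = 7 and 5). The log2 fold change was -0.26 with an SE of 0.44 (edgeR adjusted p = 0.99989), -0.11 without both high tumours, -0.64 without induced 4 alone and 0.27 without control 1 alone. With limma-voom and sample weights it was -0.04.

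H19 is a long noncoding RNA that shares enhancers with Igf2 and is expressed from the opposite parental copy. It lies on the minus strand of chromosome 7 at 142575529 to 142578143 and has 2460 exonic bases. Its first exon holds the hairpin of miR-675, whose 2 mature forms are shown from RefSeq (GRCm38.p6) because they are the short products through which H19 is known to restrain growth in the mouse placenta. The seed, bases 2 to 8, is in capitals, and the miRNAs themselves were not analysed here.
mmu-miR-675-5p: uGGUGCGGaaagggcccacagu
mmu-miR-675-3p: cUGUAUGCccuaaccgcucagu

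H19 was present in all 12 tumours and spread widely within each group. Induced tumours ranged from 4.12 CPM in induced 1 to 24.0 CPM in induced 4, with a median of 4.96 CPM. Control 1 to 5 had 6.69, 10.5, 26.1, 10.3 and 8.44 CPM. The ranges overlapped, although 4 of the 7 induced tumours, at 4.12 to 4.96 CPM, were below every control tumour. H19 averaged 9.27 ± 7.25 CPM in induced and 12.4 ± 7.83 CPM in control tumours (SD, n = 7 and 5), with a log2 fold change of -0.42 and an SE of 0.48 (edgeR adjusted p = 0.99989). The exact permutation interval was -1.69 to 0.6 (p = 0.297).

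The H19 difference depended on which tumours were compared. Without induced 4 and control 1 the log2 fold change was -1.02 (edgeR, unadjusted p = 0.0226, adjusted p = 0.99989; exact permutation p = 0.0667). Without induced 3, induced 4, control 1 and control 2 it was -1.34 (edgeR, unadjusted p = 0.0108, adjusted p = 0.99; exact permutation p = 0.0536). These sets of tumours were chosen after seeing the data. For H19, induced 4 was the highest induced tumour and control 1 the lowest control tumour. Leaving both out lowers the fold change by construction, so these p-values are no test of a difference. Over all tested genes, 327 of about 15140 in the first fit had an unadjusted p under 0.05 (edgeR). In the second fit, 567 of about 15350 did. The fold change was -0.87 without induced 4 alone, 0.04 without control 3 alone, and -0.86 with limma-voom and sample weights. High H19 did not go with high macrophage markers in every tumour: control 3, with the highest H19, had a summed macrophage level of 219 CPM, and control 1, with the highest macrophage level, had 6.69 CPM of H19.

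Per exonic length and over summed counts, H19 exceeded Igf2 by 75.3-fold in induced tumours (1489 against 46 counts, 95% interval 56.2 to 103) and by 79.5-fold in control tumours (1435 against 42 counts, 58.5 to 111). These exact intervals cover counting error only and not the spread between tumours. In single tumours the ratio ran from 22.7 to 258 in induced and from 31.2 to 415 in control tumours, most of them on few and uncertain Igf2 counts, and the groups were not tested against each other.

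Meg3 is a long noncoding RNA of the Dlk1 and Meg3 cluster on chromosome 12, expressed from the maternal copy and known for growth-restraining effects in human cells. Its locus on the plus strand runs from 109541001 to 109571726 and has 18089 exonic bases. It had the same pair of high tumours as Grb10. Meg3 was 14.1 CPM in induced 4 and 16.02 CPM in control 1, against 0.708 to 4.19 CPM in the other 10. Induced tumours had a median of 2.31 CPM, and control 2 to 5 had 2.14, 2.35, 2.72 and 1.65 CPM, all within the induced range. Meg3 averaged 3.71 ± 4.72 CPM in induced and 4.97 ± 6.19 CPM in control tumours (SD, n = 7 and 5). The log2 fold change was -0.42 with an SE of 0.78 (edgeR adjusted p = 0.99989), -0.16 without both high tumours, -1.34 without induced 4 alone (edgeR, unadjusted p = 0.0596, adjusted p = 0.908) and 0.75 without control 1 alone. With limma-voom and sample weights it was -0.08.

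Rian, a noncoding RNA downstream of Meg3 on the same strand, had the same pair of high tumours. It was 12.1 CPM in induced 4 and 12.9 CPM in control 1, and at most 2.79 CPM in the other 10. Its log2 fold change was -0.47 with an SE of 0.86 (edgeR adjusted p = 0.99989). Mirg, the next noncoding RNA of the cluster, had 31 counts in all, of which 16 were in induced 4 and 6 in control 1. Dio3, a paternally expressed gene for a thyroid hormone deiodinase at the far end of the cluster, had 60 counts. Of these, 40 were in control 1, and induced 4 and control 2 had 7 each, so only control 1 stood apart. Rtl1, a paternally expressed gene between Dlk1 and Rian, had 22 counts, of which 1 was in induced 4 and 4 in control 1. Rtl1 did not follow Meg3 and Rian.

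Dlk1, the paternally expressed gene of the cluster, encodes a transmembrane protein that holds back fat cell differentiation. The gene runs on the plus strand from 109452823 to 109463336 and has 5657 exonic bases. Dlk1 was close to absent. Induced tumours had 0 to 7 counts, with a median of 3, and control 1 to 5 had 10, 3, 1, 10 and 1 counts. The 2 tumours with no count, induced 3 and induced 7, allow up to 0.152 and 0.115 CPM at a limit of 3 counts. The low-count filter removed Dlk1 as well. The difference of mean log2 CPM was -0.26, with an interval of -1.50 to 1.03 (exact permutation p = 0.638). Induced 4, high in Meg3, had only 6 counts of Dlk1, or 0.222 CPM, and control 1 had 0.347 CPM. Per exonic length Meg3 exceeded Dlk1 by 8.84-fold in induced (95% interval 5.79 to 14.2) and by 8.33-fold in control tumours (5.59 to 12.97). Induced 4 and control 1 carried much of this. Without them the ratio was 4.71 in induced tumours (241 against 16 counts, 2.84 to 8.37). In control tumours it was 4.25 (204 against 15 counts, 2.52 to 7.74). The intervals cover counting error only, not the spread between tumours. In the 5 single induced tumours with a Dlk1 count the ratio ran from 2.81 to 19.9, with a median of 3.67. In single control tumours it ran from 1.88 to 15.0, with a median of 10.9.

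Cdkn1c encodes a maternally expressed inhibitor of cyclin-dependent kinases that brings cells out of the cycle. It lies on the minus strand of chromosome 7 at 143458339 to 143461050 and has 2039 exonic bases. Its level was low and scattered, most of all among control tumours. Induced tumours ranged from 0.458 CPM in induced 7 to 1.55 CPM in induced 6, with a median of 0.911 CPM. Control 1 to 5 had 2.05, 0.210, 2.39, 1.68 and 0.424 CPM. Thus 3 control tumours were above every induced tumour and 2 were below every induced tumour. Cdkn1c averaged 0.937 ± 0.394 CPM in induced and 1.35 ± 0.980 CPM in control tumours (SD, n = 7 and 5), with a log2 fold change of -0.53 and an SE of 0.52 (edgeR adjusted p = 0.99989). With limma-voom and sample weights the sign was the other way, at 0.25. An antisense gene, Gm44732, covers 30.7% of its exonic length.

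The noncoding RNA Kcnq1ot1, which starts within Kcnq1 and silences Cdkn1c on the paternal copy, was detected in every tumour. It ranged from 11.9 to 87.3 CPM in induced and from 13.5 to 65.1 CPM in control tumours. It was low in induced 4 (14.6 CPM) and control 1 (13.5 CPM), and also in induced 3 (11.9 CPM) and control 2 (14.5 CPM). Those are the 4 tumours at the high end of the first principal component. Its log2 fold change was 0.56 with an SE of 0.55 (edgeR adjusted p = 0.99989).

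Plagl1 encodes a zinc finger transcription factor, known to arrest the cell cycle and to regulate other imprinted genes in the mouse. Plagl1 lies on the plus strand of chromosome 10 at 13060504 to 13131694 and has 7819 exonic bases. Of the 7 tested genes it had the largest fold change, and it rested on few counts. Induced tumours had 3, 4, 4, 20, 8, 6 and 0 counts, and control tumours had 80, 14, 14, 17 and 1 counts. In CPM, induced tumours ranged from 0 in induced 7 to 0.738 in induced 4, with a median of 0.206, and control 1 to 5 had 2.77, 0.490, 0.684, 0.772 and 0.0471. Control 1 alone was far above the rest, control 5 was below 6 of the 7 induced tumours, and the groups overlapped. Induced 7, with no count, allows up to 0.115 CPM.

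Plagl1 averaged 0.284 ± 0.232 CPM in induced and 0.953 ± 1.06 CPM in control tumours (SD, n = 7 and 5). The log2 fold change was -1.73 with an SE of 0.77 (edgeR, unadjusted p = 0.0415, adjusted p = 0.99989). At an unadjusted 0.05, Plagl1 was the 1 of 7 tested genes lower in induced tumours, against 234 of all 15199 (1.54%), and 0 of the 7 were higher, against 90 of all (0.592%). In the authors' deposited table Plagl1 had a log2 fold change of -1.75, a p of 0.0265 and an adjusted p of 0.994. With limma-voom and sample weights the log2 fold change of Plagl1 was -0.19 (unadjusted p = 0.832, adjusted p = 0.962). In edgeR it was -0.79 without control 1, and without control 5 the exact permutation p was 0.0152, against 0.158 with all 12 tumours. Control 1 was the highest and control 5 the lowest control tumour for Plagl1, so each change follows from the tumour left out. Plagl1 passed the filter only through 4 control tumours and induced 4, so its place among tested genes came from the group in which it was higher.

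Mest, a paternally expressed gene, encodes a protein of the hydrolase fold family and is known as a marker of fat tissue expansion in the mouse. Mest lies on the plus strand of chromosome 6 at 30723547 to 30748465 and has 3945 exonic bases. Induced tumours ranged from 0.724 CPM in induced 6 to 3.51 CPM in induced 4, with a median of 2.48 CPM. Control 1 to 5 had 2.18, 3.43, 2.25, 1.41 and 2.45 CPM, all within the induced range. Mest averaged 2.29 ± 0.866 CPM in induced and 2.34 ± 0.726 CPM in control tumours (SD, n = 7 and 5), with a log2 fold change of -0.03 and an SE of 0.33 (edgeR adjusted p = 0.99989). The exact permutation interval was -0.91 to 0.63. Copg2 on the opposite strand covers 23.1% of its exonic length, and was at 47.5 ± 8.10 CPM in induced and 49.0 ± 6.45 CPM in control tumours (SD, n = 7 and 5).

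**Figure D2:**
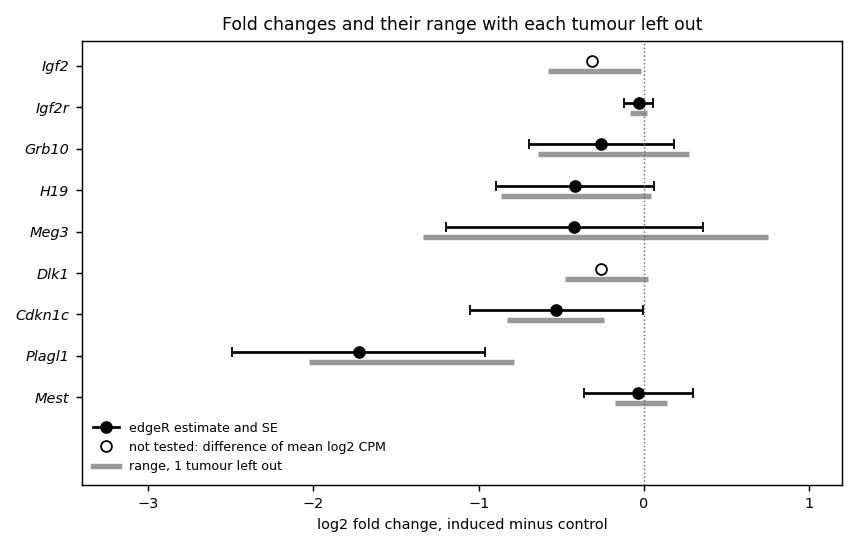
Log2 fold change of each gene, induced minus control, with the SE of the edgeR fit as a bar; open circles are differences of mean log2 CPM for Igf2 and Dlk1, which were not tested. Grey lines give the range when each tumour is left out in turn, which crosses 0 for Igf2r, Grb10, H19, Meg3, Dlk1 and Mest and stays below 0 for Igf2, Cdkn1c and Plagl1.

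Fold changes were below 0 for the 6 tested genes other than Plagl1, as for 7626 of the 15199 tested genes (50.2%), with a median of -0.34 against -0.0008 over all tested genes. Plagl1 was also below 0, a sign favoured by how it passed the filter. The shared sign rested in part on control 1, the tumour with the highest Meg3, Plagl1 and Grb10. Without control 1, 5 of the 7, Plagl1 included, were below 0, and without induced 4 and control 1 all 6 that were tested were below 0. The 7 genes also share their tumours, so their signs are not independent.

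**Figure D3:**
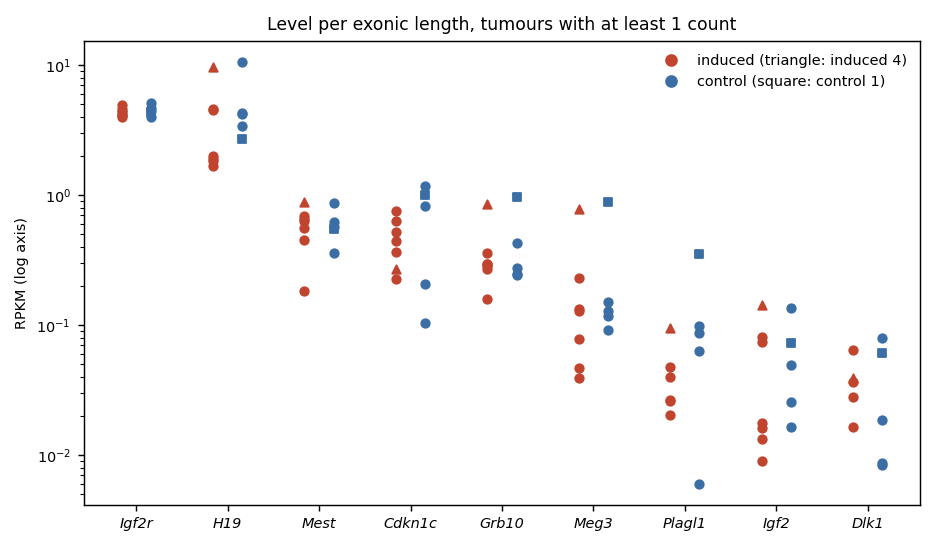
RPKM, which is CPM per kilobase of exonic length, of each gene on a log axis, induced in red left of control in blue, in tumours with at least 1 count. Igf2r and H19 lie highest and Igf2 and Dlk1 lowest.

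Levels of different genes were compared per exonic length, as RPKM from the CPM values. Igf2r came first with a mean of 4.47 ± 0.367 RPKM over the 12 tumours, and H19 next with 4.30 ± 2.98 RPKM. Igf2r was the higher in 8 of 12 tumours, so their order was not fixed. Mest followed with 0.586 ± 0.197, Cdkn1c with 0.544 ± 0.340, Grb10 with 0.391 ± 0.252 and Meg3 with 0.234 ± 0.284 RPKM (SD, n = 12). Mest was above Cdkn1c in 7 of 12 tumours and Cdkn1c above Grb10 in 9, which leaves those neighbours unresolved, whereas H19 was above Mest and Grb10 above Meg3 in all 12. The lengths merge the exons of all transcripts of a gene, 18089 bases for Meg3 and 9089 for Grb10. In CPM, Meg3 was above Grb10 in induced 4, induced 6, control 1 and control 4, so their order depends on the lengths used. Plagl1, at 0.0720 ± 0.0951 RPKM, was below Meg3 in all 12 and above Igf2, at 0.0543 ± 0.0471, in 6. Dlk1 was last at 0.0301 ± 0.0267 RPKM, with Igf2 above it in 10 of 12. The order spanned growth promoters and growth restrainers, and the clearance receptor Igf2r exceeded the growth factor Igf2 by 83.9-fold in induced (95% interval 62.8 to 115) and 74.5-fold in control tumours (55.0 to 104) over summed counts. Induced 4 held 22 of the 46 Igf2 counts of induced tumours, and without it their ratio was 130.1 (87.3 to 203). In single tumours the ratio ran from 33.6 to 457 in induced and from 34.8 to 310.5 in control tumours. Igf2 shares 62.8% of its exonic length with Gm49394 on the same strand, so its low rank and these ratios are uncertain.

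Spread between tumours also differed among the genes. By the SD of log2 CPM among the tested genes, Mest was at the 77.9th percentile, Grb10 at the 85.7th, H19 at the 91.5th, Cdkn1c at the 92.9th, and Meg3 and Plagl1 at the 97.9th. Low counts raise this measure, which touches Plagl1 and Cdkn1c most, whereas H19 had at least 78 counts in every tumour.

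**Figure D4:**
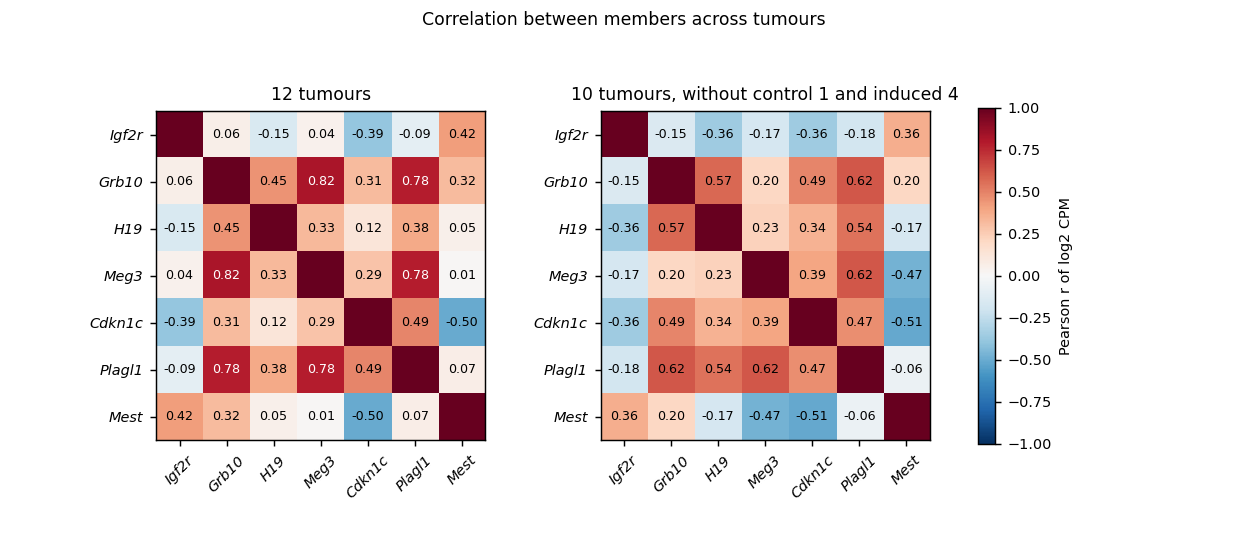
Pearson correlation of log2 CPM between the 7 tested genes over 12 tumours and over the 10 without induced 4 and control 1. Meg3, Plagl1 and Grb10 correlate at 0.78 to 0.82 over 12 tumours, and Meg3 and Grb10 at 0.20 over 10.

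Meg3, Plagl1 and Grb10 were correlated by Pearson's r over the 12 tumours. Among the 21 pairs of tested genes, 3 had an adjusted permutation p under 0.05 for Pearson's r of log2 CPM. The share of pairs over all genes that would pass was not computed, so the 3 cannot be read as a trait of these genes. For Meg3 and Grb10, r was 0.820 (permutation p = 0.004, adjusted p = 0.028) and Spearman's rho 0.364 (permutation p = 0.248, adjusted p = 0.473). For Meg3 and Plagl1, r was 0.785 (permutation p = 0.00281, adjusted p = 0.028) and rho 0.797 (permutation p = 0.00275, adjusted p = 0.0578). For Plagl1 and Grb10, r was 0.784 (permutation p = 0.00218, adjusted p = 0.028) and rho 0.497 (permutation p = 0.105, adjusted p = 0.443). No pair passed by rho.

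The correlation of Meg3 and Grb10 rested on the 2 tumours that stood apart. Without induced 4 and control 1, which are also the tumours farthest from the median of Meg3, r was 0.205 for Meg3 and Grb10 and 0.620 for Meg3 and Plagl1. For Plagl1 and Grb10, r was 0.620 without induced 4 and control 1, and 0.464 without induced 7 and control 1, the tumours farthest from the median of Plagl1. Without induced 3, induced 4, control 1 and control 2, r was 0.750 for Meg3 and Plagl1 and 0.706 for Plagl1 and Grb10 over 8 tumours. Spearman's rho for Plagl1 and Grb10 was only 0.236 over the 10 tumours and 0.357 over the 8. Control 5 and induced 7 had 1 and 0 counts of Plagl1. With these 2 also left out, r for Plagl1 and Grb10 was 0.0318 in the first set and 0.246 in the second. None of the 21 pairs passed the adjusted threshold among the 10 or the 8 tumours, sets in which fewer tumours also make the threshold harder to reach. Igf2r and Mest correlated at 0.419 and Cdkn1c and Mest at -0.503 over 12 tumours, neither past the threshold (permutation, adjusted p = 0.515 and 0.459).

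**Figure D5:**
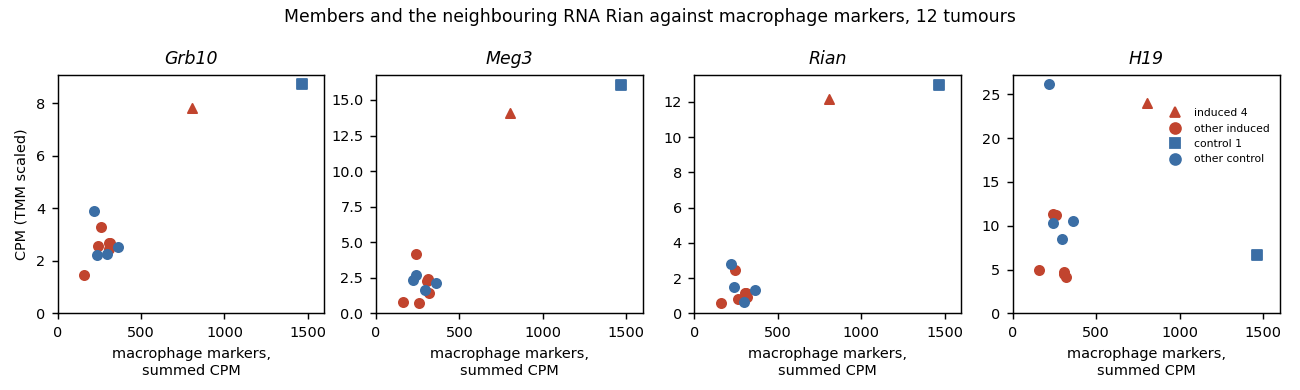
CPM of Grb10, Meg3, Rian and H19 against the summed CPM of 10 macrophage markers in each tumour. Induced 4 (triangle, 805 CPM) and control 1 (square, 1467 CPM) lie apart in macrophage markers and in Grb10, Meg3 and Rian, while H19 is high in induced 4 and control 3.

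Induced 4 and control 1 were the 2 highest tumours for 2 of the 7 tested genes, Meg3 and Grb10, a pattern held by 1217 of the 15199 tested genes (8.01%). The pair was chosen after seeing the data, Meg3 and Grb10 included, so this count is no test of these genes. The pattern was held by 10 of 10 macrophage markers, 9 of 14 tested fibroblast markers, 6 of 9 tested pericyte and smooth muscle markers, 2 of 9 tested adipocyte markers and 1 of 14 endothelial markers. It was held by none of the tested markers of skeletal muscle (14), satellite cells (1), epithelium (3), T cells (3), B cells (7) or neutrophils (7). Lists of 1 or 3 tested genes can say little beside a share of 8.01%. Of 29 other imprinted genes tested, 7 did: Rian, Cd81, Tssc4, Tspan32, Nnat, Copg2 and Dcn. The pattern rests on 2 tumours. Over all 12, the r of Meg3 with the log2 summed level of macrophage, T cell and fibroblast markers was 0.843, 0.730 and 0.273. Over the 10 without those 2 it was 0.2735, 0.802 and -0.675. For Grb10 the values were 0.883, 0.538 and 0.549 over 12 and 0.374, 0.164 and -0.0201 over 10. In summed markers induced 4 ranked only 3rd for fibroblasts and control 1 only 5th for pericytes and smooth muscle. The part of these cell types in the levels of Meg3 and Grb10 was not tested.

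The genes whose log2 CPM was most like each member over the 12 tumours were sought among 10959 named genes. For Grb10 they were Cd36 (r = 0.965), Nrp1 (0.951) and Loxl2 (0.945), a fatty acid receptor, a co-receptor of VEGF and a collagen cross-linking enzyme. For Meg3 they were Olfml2b (0.938), Pmepa1 (0.937) and Ccdc80 (0.933). Among the 10 tumours without induced 4 and control 1, these 6 values were between 0.684 and 0.845. For Plagl1 they were Slc16a10 (0.884), Slc12a7 (0.882) and Hpgds (0.868), and for H19 Dph2 (0.886), Mtbp (0.843) and Tex9 (0.822). For Cdkn1c they were Tango2 (0.886), Snx32 (0.780) and Ly6c1 (0.766), for Mest Phf2 (0.888), Mbtps2 (0.886) and Xkr8 (0.862), and for Igf2r Zfp296 (0.848), Fam149b (0.824) and Slc35c1 (0.818). All of these r values were the highest of 10959, so they describe these tumours only.

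Promoter sequences from RefSeq (GRCm38.p6), from 250 bases before to 50 after a start, were matched for 7 of the 9 genes in 14 windows. The first listed windows of Meg3, Plagl1 and Grb10 are shown because these genes were correlated by Pearson's r over all tumours. That of Igf2r is shown because it was steady. The letters searched, on both strands, were those of the TATA box (TATAAA), of the CCAAT box (these letters themselves), of the GC box (GGGCGG) and of the cAMP response element (TGACGTCA), and matches are in capitals.
Meg3, chr12:109540746-109541045, plus strand: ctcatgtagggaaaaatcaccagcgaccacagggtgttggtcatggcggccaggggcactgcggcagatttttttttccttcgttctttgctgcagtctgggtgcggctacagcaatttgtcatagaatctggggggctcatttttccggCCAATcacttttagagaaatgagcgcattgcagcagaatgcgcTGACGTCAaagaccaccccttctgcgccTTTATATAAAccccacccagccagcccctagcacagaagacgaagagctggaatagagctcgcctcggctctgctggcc
Plagl1, chr10:13090582-13090881, plus strand: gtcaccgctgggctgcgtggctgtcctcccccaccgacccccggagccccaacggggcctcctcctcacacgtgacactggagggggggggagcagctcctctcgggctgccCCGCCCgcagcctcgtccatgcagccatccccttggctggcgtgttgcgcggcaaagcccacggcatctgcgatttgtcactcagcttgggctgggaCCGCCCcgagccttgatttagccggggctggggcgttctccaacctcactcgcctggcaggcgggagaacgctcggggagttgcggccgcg
Grb10, chr11:12037371-12037670, minus strand: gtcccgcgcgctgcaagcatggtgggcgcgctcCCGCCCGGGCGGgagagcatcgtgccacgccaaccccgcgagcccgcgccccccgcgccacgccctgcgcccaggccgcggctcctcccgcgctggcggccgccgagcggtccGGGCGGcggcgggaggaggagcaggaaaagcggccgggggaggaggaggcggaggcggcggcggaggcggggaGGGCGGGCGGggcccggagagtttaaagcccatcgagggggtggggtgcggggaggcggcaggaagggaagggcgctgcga
Igf2r, chr17:12769657-12769956, minus strand: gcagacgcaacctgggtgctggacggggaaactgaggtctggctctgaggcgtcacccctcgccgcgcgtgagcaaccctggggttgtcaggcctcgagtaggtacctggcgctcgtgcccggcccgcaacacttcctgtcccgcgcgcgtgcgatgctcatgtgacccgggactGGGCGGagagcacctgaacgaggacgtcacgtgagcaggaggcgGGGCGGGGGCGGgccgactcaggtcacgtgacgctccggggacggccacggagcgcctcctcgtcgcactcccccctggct

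No motif searched was found in all 3 of the windows shown of Meg3, Plagl1 and Grb10. The Meg3 window held 2 overlapping matches to TATAAA on opposite strands, 1 to CCAAT and 1 to TGACGTCA, and none to GGGCGG. The Plagl1 window held 2 matches to GGGCGG, the Grb10 window 5 and the Igf2r window 3, and none of those 3 held another of the motifs searched. Of 32851 promoters of the same length, 13.6% held TATAAA, 37.4% CCAAT, 35.7% GGGCGG and 1.79% TGACGTCA. The windows held 13 CpG in Meg3, 26 in Plagl1, 45 in Grb10 and 34 in Igf2r, against a median of 7 over all promoters. Meg3 and Grb10 each had a second window, not shown, with 1 and 9 CpG and no match to the motifs searched. The matches are letters only, and binding was not measured.

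Other imprinted genes showed no common direction. Of 52 listed, 46 were in the table and 29 were tested, of which 12 had fold changes above 0 and 17 below 0, none past the adjusted threshold and none with an unadjusted p under 0.05. Their median was -0.05, against -0.0008 over all tested genes. The smallest p belonged to Dcn, a collagen-binding proteoglycan of fibroblasts, at 8.72 ± 9.02 CPM in induced and 32.9 ± 63.6 CPM in control tumours (SD, n = 7 and 5), with a log2 fold change of -1.91 and an SE of 1.00 (edgeR adjusted p = 0.99989). Kcnq1, a potassium channel, had a log2 fold change of 0.61 (SE 0.37), Sgce, a sarcoglycan, -0.80 (SE 0.51) and Ube3a, a ubiquitin ligase, 0.29 (SE 0.21).

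The insulin and IGF pathway around Igf2, Igf2r and Grb10 was expressed but did not differ past the threshold. Of 28 listed genes, 27 were in the table and 23 were tested, 14 above and 9 below 0, with a median of 0.03 and none called, also at an unadjusted 0.05. The signalling receptor Igf1r was at 149 ± 44.8 CPM in induced and 130 ± 38.9 CPM in control tumours, and the insulin receptor Insr at 66.5 ± 7.89 CPM in induced and 62.7 ± 8.52 CPM in control tumours (SD, n = 7 and 5 in each case). Igf1, the growth factor that shares that receptor, was at 5.10 ± 4.83 CPM in induced and 7.19 ± 9.16 CPM in control tumours. The smallest p belonged to Igfbp5, an IGF-binding protein, with a log2 fold change of -1.03 (SE 0.70), followed by Pik3r1, a subunit of phosphoinositide kinase, at 0.12 (SE 0.12), and Igf2bp2, an RNA-binding protein, at 0.10 (SE 0.12).

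The machinery that keeps imprints likewise showed no difference past the threshold. Of 18 genes for imprint maintenance and locus regulation, all 18 were in the table and 16 were tested, 8 above and 8 below 0, with a median of 0.0002. Tet1, which oxidises methylcytosine, had a log2 fold change of -0.92 (SE 0.52) at 0.541 ± 0.276 CPM in induced and 1.02 ± 0.843 CPM in control tumours (SD, n = 7 and 5). Dnmt1, the maintenance DNA methyltransferase, was at -0.24 (SE 0.18), Suz12, a Polycomb subunit, at 0.13 (SE 0.10), and Ctcf, which binds the control region of the H19 and Igf2 locus, at 0.07 (SE 0.06). Of the 6 CDK inhibitors other than Cdkn1c, 4 were tested, 1 above and 3 below 0, with a median of -0.02. Cdkn1b was at 140 ± 18.9 CPM in induced and 126 ± 22.4 CPM in control tumours (SD, n = 7 and 5), and Cdkn1a at 125 ± 26.5 CPM in induced and 130 ± 21.3 CPM in control tumours. No gene of either list was called.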

How the data were processed

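Bulk RNA-seq of 12 mouse tumours, 7 induced and 5 control, was analysed. Libraries were made with the SMARTER mRNA-seq kit from 1.3 ug of total RNA, per the labels' protocols. Reads were placed on GRCm38 (mm10), per the submitters' processing notes. Aligner, annotation, counting tool and strand use were each not given in the sources used here. Growth text in the labels describes fat cell differentiation of another cell line, so groups came from titles and the treatment label. Raw counts per gene were deposited by the authors, per the file headers, along with rlog values on the log2 scale, with their own log2 fold change, signed fold change score, p-value and adjusted p-value. The rlog values were not used.

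Raw counts were tested with edgeR 4.0.16 in R 4.3.3: filterByExpr with a minimum count of 10 (15199 genes kept, 9917 removed), TMM scaling and a two-sided quasi-likelihood F test with robust estimation, Benjamini-Hochberg adjusted over all tested genes. Fold changes are induced minus control. Log2 CPM used a prior count of 2. Exact permutation tests of single genes used all splits of the 12 tumours, unadjusted, and cannot give a p below 0.00126; intervals of 95% invert them. Correlation p-values used 100000 permutations. Exact intervals of counts, and limits of 3 counts, cover counting error only. Positions and exonic lengths are from GENCODE release 21 on GRCm38. Exonic lengths merge the exons of all transcripts of a gene, so levels and ratios per length depend on that choice. No libraries of a group agreed within sampling noise (chi-square per gene of 13.3 or more).

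The members and lists were chosen with earlier results of these data known. All 9 members are named, and Hspg2. In each list up to 4 genes with the smallest p are named, and for each tested member the 3 genes with the highest r (mean log2 CPM over 1, no predicted names). Neighbours within the imprinted clusters were named after their values were seen. Alternatives were DESeq2 1.42.0, limma-voom 3.58.1 with sample weights, other filters and size factors, estimation that was not robust, a replicate block and leaving out each tumour. The fits without tumours that stood apart, and a prior count of 0.5, were added after seeing the data. The fit was tested on simulated data.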

Additional observations from a re-analysis of the deposited data

Results flagged for a closer look

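In 18 sets of values, 9 genes in each of the 2 groups, 7 had a highest tumour far from the next by Dixon's test. Chance gives this in about 1 of 20 only for normally distributed values, and the CPM were not log-transformed. The share that the rule flags over all genes was not computed, so the 7 cannot be read as a trait of these genes. Induced 4 and control 1 were the 2 highest tumours for 8.01% of all tested genes. H19 was 24.0 CPM in induced 4, and 26.1 CPM in control 3. Meg3 was 14.1 CPM in induced 4, and 16.02 CPM in control 1. Grb10 was 7.83 CPM in induced 4, and 8.74 CPM in control 1. Plagl1 was 2.77 CPM in control 1. All 7 lie in 3 tumours. The summed macrophage markers were 805 CPM in induced 4, 1467 CPM in control 1 and 219 CPM in control 3, and their part in these values was not tested.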

How the results depend on the processing

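Over 193 fold changes of the 9 genes under 23 alternative settings, 180 kept their sign and 13 did not. Of the 159 with an adjusted p, none was under 0.05; the other 34, of Igf2 and Dlk1, had exact permutation tests only. With limma-voom Cdkn1c was 0.25, Plagl1 -0.19, Meg3 -0.08, Grb10 -0.04, H19 -0.86 and Igf2r -0.09. Same-numbered tumours of the 2 groups had correlations of -0.313, -0.507, -0.512, -0.531 and 0.210 for numbers 1 to 5. Differently numbered tumours ran from -0.655 to 0.686, so these values show no pairing but cannot exclude one. With a replicate block Igf2r was 0.0104, Grb10 0.0104, Mest 0.24, and H19 -0.58, Plagl1 -1.003, Meg3 -0.36 and Cdkn1c -0.25, with 108 genes at an unadjusted 0.05 against 324. Leaving out 1 tumour gave ranges of -0.58 to -0.02 for Igf2, -0.0854 to 0.0165 for Igf2r (above 0 without control 5), -0.64 to 0.27 for Grb10 and -1.34 to 0.75 for Meg3 (both above 0 without control 1), -0.87 to 0.0392 for H19 (without control 3), -0.48 to 0.0245 for Dlk1 (without control 4), -0.83 to -0.25 for Cdkn1c, -2.02 to -0.79 for Plagl1 and -0.18 to 0.14 for Mest (0.12 without induced 6, 0.02 without induced 7, 0.14 without control 2). Plagl1 did not pass the filter without induced 4 or under the stricter one. Without induced 3, induced 4, control 1 and control 2, Dlk1 was 0.0242. The genes with an exact permutation p under 0.05 numbered 0 to 1, the 1 being Plagl1 without control 5, its lowest control tumour. The pairs of genes past the correlation threshold fell to 0 of 21 without induced 4 and control 1, and to 0 without the 4 tumours apart, against 3. The cause was not tested. Genes at an unadjusted 0.05 numbered 198 to 745 with 1 tumour left out, 621 with no filter, 567 without 4 tumours and 995 with limma-voom. Depth limits Igf2, Dlk1 and Plagl1, with medians of 5.5, 3 and 7 counts.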
